A study of Mus musculus with 6 samples.

Results

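The genes of the citrate cycle and of pyruvate oxidation were examined in mouse quadriceps muscle after deletion of Drp1, the GTPase encoded by *Dnm1l* that divides mitochondria. The members are 36 genes of the 27179 in the count files, taken by gene symbol: 16 of the citrate cycle, 4 subunits of the pyruvate dehydrogenase complex, 4 pyruvate dehydrogenase kinases, 3 genes of the opposing phosphatase, 2 of the mitochondrial pyruvate carrier, and 7 aspartate, malate and glutamate enzymes with the transhydrogenase *Nnt*. Total RNA was sequenced from 3 mice labelled Control f/f and 3 labelled miDrp1KO, all kept on normal chow. Per the study's methods, miDrp1KO mice combine floxed *Dnm1l* alleles on a C57BL/6J background with MerCreMer, a Cre activated by tamoxifen under the human skeletal actin promoter, so that deletion is directed to muscle fibres and not to the other cells of the muscle. The methods define controls by floxed alleles (flox/flox or flox/+), and mice of both groups were males that received tamoxifen at 3 months of age. Muscle was collected 3 weeks after deletion and after a short fast. Libraries are named by the letters of their labels, B, C and D for control and A, E and F for miDrp1KO, and each is a separate animal.

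Pyruvate made by glycolysis enters the mitochondrial matrix through the pyruvate carrier, and the pyruvate dehydrogenase complex converts it to acetyl-CoA. The complex is switched off when its kinases phosphorylate the alpha subunit and switched on again by the phosphatase, and in muscle the kinase Pdk4 is known to be induced by fasting. The citrate cycle then oxidises acetyl-CoA and passes electrons to the respiratory chain. Aspartate and malate enzymes carry reducing equivalents between cytosol and matrix and refill the cycle. Oxidative fibres hold more of these enzymes than glycolytic fibres do.

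Libraries held between 13989588 (control C) and 62042255 (control D) counts, of which ribosomal RNA genes took 1.48% to 24.4%. Levels are given as CPM, counts relative to the library's total after scaling by the trimmed mean of M values. *Dnm1l* stood at 156, 114 and 140 CPM in controls B, C and D and at 70.6, 81.3 and 66.2 CPM in miDrp1KO A, E and F. All 3 miDrp1KO libraries were lower than every control (log2 fold change -0.91 ± 0.18 SE; edgeR, Benjamini-Hochberg adjusted p = 0.362), as the labels require, although the test across all genes did not call the deleted gene itself. Of the 16483 genes that passed the filter on low counts, edgeR's quasi-likelihood test called 2, or 0.0121%.

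All 36 members passed the filter, and none was called, with adjusted p-values from edgeR between 0.392 and 0.992 after Benjamini-Hochberg adjustment. DESeq2, run as an alternative, also called 0 of the 34 members to which it gave an adjusted p, against 55 of 7852 genes (0.7%). Without adjustment, 6 members had an edgeR p under 0.05 in the lower direction and 1 in the higher, and the same criterion took 6.22% of all tested genes in the lower direction and 4.68% in the higher. In 10 members all 3 miDrp1KO libraries lay below all 3 controls, against 10.3% of all tested genes. No member had all 3 miDrp1KO libraries above the controls, against 7.67% of all genes, and the other 26 overlapped. In bulk muscle, fewer cells of a type and less RNA per cell cannot be told apart.

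Fitted log2 fold changes were below 0 for 29 members and above 0 for 7, while 7911 of all tested genes were below 0 and 8572 above. The median over the 36 was -0.23, and the median over all tested genes was 0.017. The count without overlap depended on the scaling of the libraries and on the filter. With upper quartile scaling, 4 members lay below and 2 above the controls, against 6.90% and 10.9% of all tested genes, and 27 were below 0. That scaling moved all genes alike, and the members' median minus that of all genes was -0.25 under both scalings. With a filter of at least 10 counts in every library, 5 members lay below, against 10.3% of all genes tested.

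**Figure D1:**
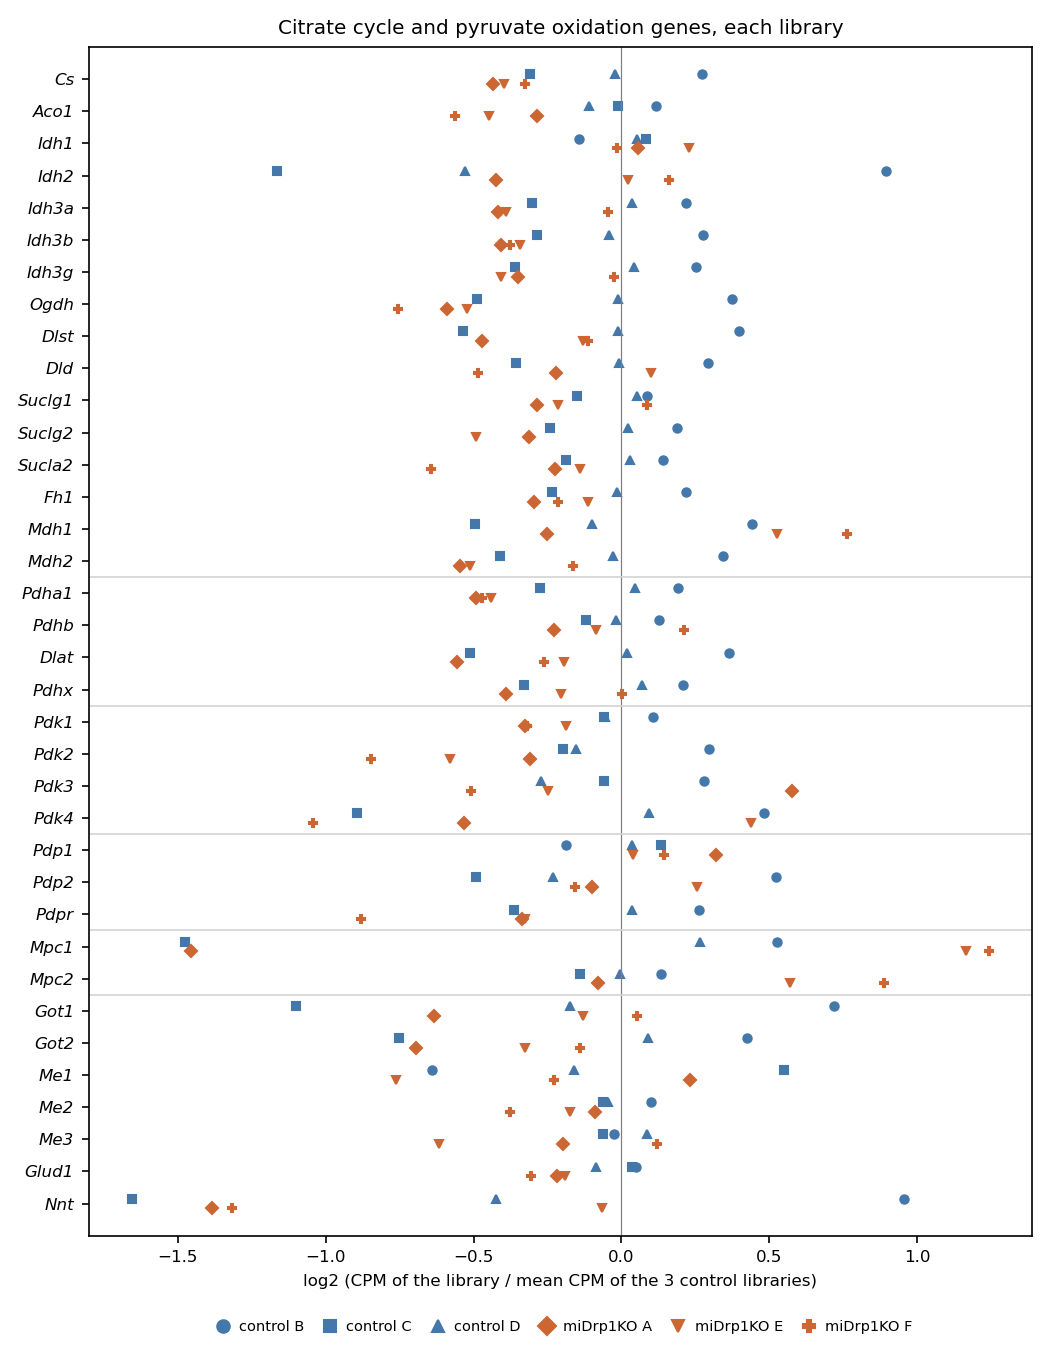
Level of each of the 36 genes in each library, as the log2 of its CPM over the mean CPM of the 3 control libraries, with roles separated by grey lines. Control B (blue circles) is the highest control for 32 genes and control C (blue squares) the lowest for 30.

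The control libraries differed among themselves along the same genes. Control B was the highest control for 32 of the 36 members and control C the lowest for 30, and both held for 29, which is 80.6% of members against 24.0% of all tested genes. The median ratio of B to C was 1.44 over the members and close to 1 over all genes. B was also the highest of all 6 libraries for 26 members (72.2%), against 16.4% of all tested genes. Without control B, 22 members were below 0, their median was -0.082 and 0 had an unadjusted edgeR p under 0.05 in the lower direction. Without control C, 30 were below 0, their median was -0.42, 10 had such a p and 21 lay below the remaining controls, against 15.6% of all genes tested in that fit. Without control D or miDrp1KO F, 2 and 3 members had such a p, and without miDrp1KO A or E, 4 did. For these refits the share of all tested genes with such a p is not given. The counts by p are therefore not read as a result about the members. By the median, how large the difference between groups was turned on single animals.

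Promoters are printed for 4 genes: *Cs*, *Suclg2* and *Pdha1*, whose miDrp1KO libraries all lay below the controls, and *Mpc2*, the member with an unadjusted p under 0.05 in the higher direction. For *Cs*, *Pdha1* and *Mpc2*, the window is the 250 bases before the start of the gene in RefSeq on GRCm38.p6. The *Suclg2* window is also 250 bases long but reaches into the gene, which spans 95473009 to 95718858. Windows are written on the strand of the gene. Capitals mark GGGCGG or its reverse complement CCGCCC, the core letters bound by Sp factors. *Cs* is read from chr10:128337477-128337726 on the plus strand, *Suclg2* from chr6:95718847-95719096 on the minus strand, *Pdha1* from chrX:160138431-160138680 on the minus strand and *Mpc2* from chr1:165461010-165461259 on the plus strand.
Cs: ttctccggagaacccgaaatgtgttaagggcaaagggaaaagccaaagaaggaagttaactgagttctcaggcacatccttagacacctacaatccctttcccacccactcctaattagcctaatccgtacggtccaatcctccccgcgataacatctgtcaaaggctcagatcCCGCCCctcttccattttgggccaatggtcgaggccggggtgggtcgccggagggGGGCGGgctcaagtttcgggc
Suclg2: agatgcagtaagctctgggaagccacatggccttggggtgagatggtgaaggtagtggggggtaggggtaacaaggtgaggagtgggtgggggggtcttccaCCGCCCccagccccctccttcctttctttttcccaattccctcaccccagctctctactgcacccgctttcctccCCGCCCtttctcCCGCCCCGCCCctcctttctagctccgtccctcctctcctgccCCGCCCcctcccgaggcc
Pdha1: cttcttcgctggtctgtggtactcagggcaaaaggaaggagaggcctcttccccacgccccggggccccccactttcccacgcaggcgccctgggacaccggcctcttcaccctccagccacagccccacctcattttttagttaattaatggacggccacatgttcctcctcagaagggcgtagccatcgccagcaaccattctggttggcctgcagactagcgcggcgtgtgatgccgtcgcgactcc
Mpc2: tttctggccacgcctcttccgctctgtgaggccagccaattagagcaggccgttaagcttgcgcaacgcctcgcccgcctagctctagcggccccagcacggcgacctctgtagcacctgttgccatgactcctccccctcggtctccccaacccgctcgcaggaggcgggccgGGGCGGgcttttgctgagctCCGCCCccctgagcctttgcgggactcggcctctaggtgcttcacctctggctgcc

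These letters occurred in 25 of the 42 promoter windows found for 32 members (59.5%), against 32.7% of all 32851 windows of this length. The set of all windows was not limited to genes that passed the filter on low counts, and some members, such as *Ogdh*, have several windows. Whether the letters are more frequent in members than in other expressed genes was not tested. *Suclg2* holds 5 matches, a pair of which share a base, *Cs* and *Mpc2* hold 2 each, and *Pdha1* holds none, so that both the lower genes and the higher gene include windows with the motif. Searched on both strands, CCGGAAG, the core of sites for ETS factors such as GABP, occurred in 7.14% of member windows and 6.91% of all windows. TNAAGGTCA (estrogen-related receptors), GCGCA directly followed by TGCGC (NRF1) and AGGTCA repeated with 1 base between (PPAR) were found in no member window, against 1.14%, 0.782% and 0.0335% of all windows. *Idh3a*, *Pdp1*, *Me2* and *Nnt* had no entry in the promoter table used here.

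Of the 16 citrate cycle genes, 14 had a fitted change below 0 and 2 above, with a median of -0.26. The unadjusted edgeR p was under 0.05 for 3, all lower, against 6.22% of all tested genes in that direction. In 5, all miDrp1KO libraries lay below all controls, against 10.3% of all tested genes. *Cs*, citrate synthase, which joins acetyl-CoA to oxaloacetate at the entry of the cycle (chromosome 10, 128337727 to 128362482), stood at 505, 336 and 411 CPM in the controls and 309, 317 and 332 CPM in miDrp1KO. The miDrp1KO animals lay close together (319 ± 11.9, SD, n = 3) and the controls spread widely (417 ± 84.2, SD, n = 3), with control C only just above miDrp1KO F. The log2 fold change was -0.39 ± 0.21 SE (edgeR, Benjamini-Hochberg adjusted p = 0.524).

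*Ogdh*, the oxoglutarate dehydrogenase subunit that decarboxylates 2-oxoglutarate, had the largest difference in the cycle. It measured 657, 361 and 502 CPM in the controls and 337, 352 and 300 CPM in miDrp1KO, again with control C just above the miDrp1KO animals (-0.62 ± 0.24 SE; edgeR, Benjamini-Hochberg adjusted p = 0.407). The other parts of that complex overlapped between groups. *Dlst*, the succinyltransferase, measured 259, 136 and 195 CPM in the controls against 142, 180 and 182 CPM. *Dld*, the dihydrolipoamide dehydrogenase shared with the pyruvate dehydrogenase complex, measured 632, 404 and 513 CPM against 443, 554 and 369 CPM.

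*Suclg2* encodes the GDP-forming beta subunit of succinyl-CoA synthetase, the enzyme that turns succinyl-CoA into succinate with formation of a nucleoside triphosphate. It measured 45.3, 33.6 and 40.3 CPM in the controls and 32, 28.3 and 31.9 CPM in miDrp1KO, without overlap (-0.37 ± 0.16 SE; edgeR, Benjamini-Hochberg adjusted p = 0.441). *Sucla2*, the ADP-forming beta subunit, measured 787, 627 and 727 CPM in the controls and 611, 647 and 457 CPM in miDrp1KO (-0.32 ± 0.22 SE; edgeR, Benjamini-Hochberg adjusted p = 0.616). miDrp1KO E reached above control C for this gene, so the groups overlapped. *Suclg1*, the alpha subunit common to both enzymes, overlapped through miDrp1KO F alone, at 170, 144 and 166 CPM against 131, 138 and 170 CPM. On the scale of mean CPM per kilobase of exon, *Sucla2* was at 320 in controls and 256 in miDrp1KO, far above *Suclg2* at 10.6 and 8.16.

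*Idh3b*, a regulatory subunit of the NAD-dependent isocitrate dehydrogenase, had the highest level per length among citrate cycle members, at a mean of 411 CPM per kilobase in controls and 317 in miDrp1KO. It measured 805, 545 and 645 CPM in the controls and 501, 524 and 512 CPM in miDrp1KO, with every miDrp1KO library below every control (-0.37 ± 0.21 SE; edgeR, Benjamini-Hochberg adjusted p = 0.552). The catalytic subunit gene *Idh3a* (299 to 429 CPM in controls, 276 to 357 in miDrp1KO) and the regulatory subunit gene *Idh3g* (201 to 306 and 194 to 253) had fitted values of -0.28 and -0.25 and overlapped. *Idh2*, the NADP-dependent mitochondrial enzyme, measured 292, 70.0 and 109 CPM in the controls and 117, 159 and 176 CPM in miDrp1KO. Control B stood far above control C, and the miDrp1KO animals fell between them. *Idh1*, its cytosolic counterpart, ranged from 23.1 to 27.0 CPM in controls and from 25.3 to 29.9 CPM in miDrp1KO.

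*Aco1*, the cytosolic aconitase that doubles as an iron-regulatory RNA-binding protein, measured 27.1, 24.8 and 23.2 CPM in the controls and 20.5, 18.3 and 16.9 CPM in miDrp1KO. The groups did not overlap, and controls B and C were close to each other here (-0.43 ± 0.15 SE; edgeR, Benjamini-Hochberg adjusted p = 0.392). *Fh1*, fumarase, ranged from 155 to 212 CPM in controls and from 148 to 168 CPM in miDrp1KO, with a fitted value of -0.21. The remaining cycle members are the malate dehydrogenases. *Mdh2*, the mitochondrial form, measured 287, 170 and 222 CPM in the controls and 155, 159 and 202 CPM in miDrp1KO (-0.40 ± 0.22 SE; edgeR, Benjamini-Hochberg adjusted p = 0.548). *Mdh1*, the cytosolic form, measured 424, 221 and 291 CPM in the controls and 262, 449 and 530 CPM in miDrp1KO, the largest fitted value above 0 in the cycle (0.41 ± 0.31 SE; edgeR, Benjamini-Hochberg adjusted p = 0.656). The miDrp1KO animals E and F were highest for *Mdh1* and A lay among the controls.

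**Figure D2:**
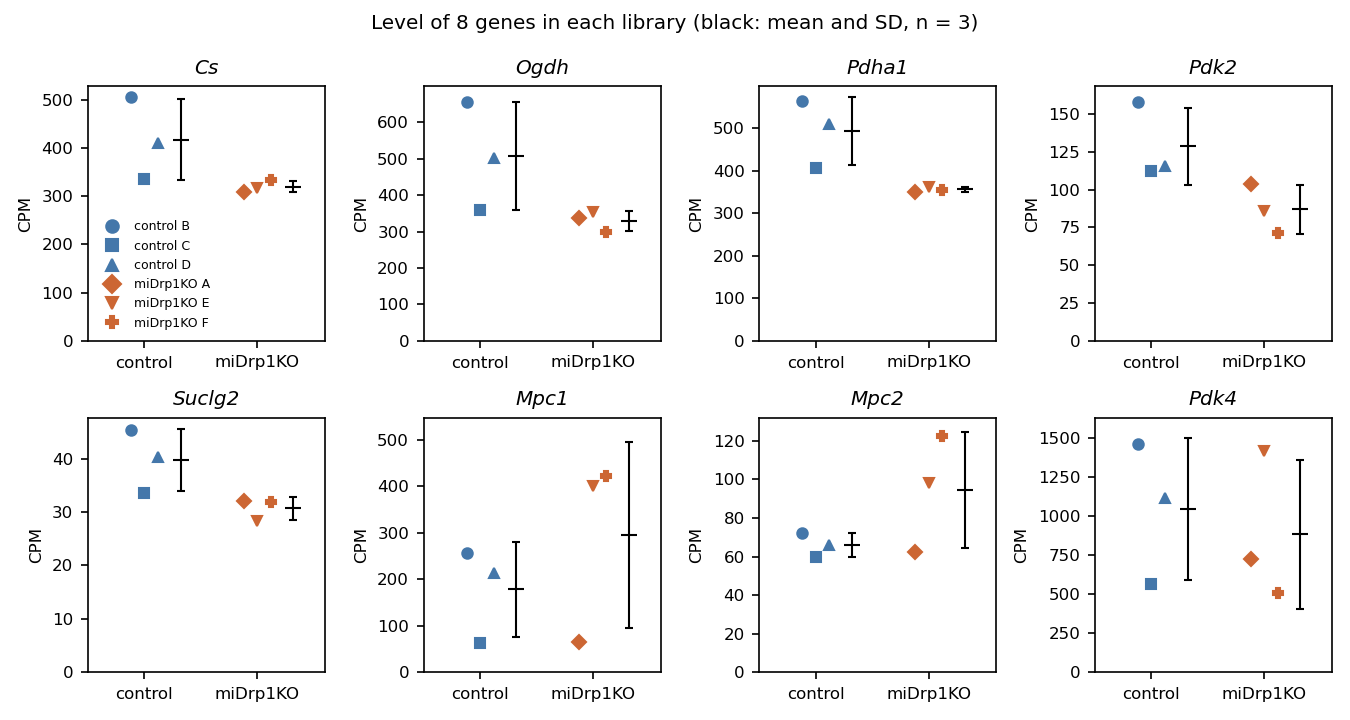
CPM of 8 genes in each library, by group, with the mean and SD (n = 3) in black and each axis starting at 0. The miDrp1KO values of *Cs*, *Ogdh* and *Pdha1* lie close together below control C, while *Mpc1* and *Mpc2* are high in miDrp1KO E and F and low in A.

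All 4 pyruvate dehydrogenase complex genes had fitted changes below 0, and 1 did not overlap, against 10.3% of all tested genes lower without overlap. *Pdha1*, the X-linked alpha subunit of the pyruvate decarboxylase component and the target of the kinases (chromosome X, 160122219 to 160138430), measured 563, 407 and 509 CPM in the controls and 350, 363 and 356 CPM in miDrp1KO. The miDrp1KO animals were nearly equal (356 ± 6.29, SD, n = 3), below a control mean of 493 ± 79.1 (SD, n = 3), and the log2 fold change was -0.47 ± 0.20 SE (edgeR, Benjamini-Hochberg adjusted p = 0.434). *Pdhb*, the beta subunit that pairs with it, measured 172, 145 and 156 CPM in the controls and 135, 149 and 183 CPM in miDrp1KO, with a fitted value of -0.02. Only miDrp1KO E lay within the range of the controls, with A below it and F above. *Dlat*, the acetyltransferase core, ranged from 93.6 to 172 CPM in controls and from 90.8 to 117 CPM in miDrp1KO. *Pdhx*, which anchors the dihydrolipoamide dehydrogenase, ranged from 77.8 to 113 CPM and from 74.7 to 98.0 CPM.

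Of the 4 kinases that inactivate the complex, 3 were below 0 and 1 was above. Among the lower ones 2 did not overlap, against 10.3% of all tested genes lower without overlap. *Pdk2* measured 158, 112 and 116 CPM in the controls and 104, 86.0 and 71.6 CPM in miDrp1KO, without overlap (-0.56 ± 0.20 SE; edgeR, Benjamini-Hochberg adjusted p = 0.393). *Pdk1*, the hypoxia-responsive kinase, measured 108, 96.6 and 96.9 CPM in the controls and 80.3, 88.3 and 80.7 CPM in miDrp1KO, also without overlap (-0.28 ± 0.16 SE; edgeR, Benjamini-Hochberg adjusted p = 0.555). *Pdk4* was the most abundant kinase, with a mean of 301 CPM per kilobase in controls against 57.3 for *Pdk2*, 19.4 for *Pdk1* and 0.646 for *Pdk3*. It measured 1464, 564 and 1119 CPM in the controls and 726, 1422 and 509 CPM in miDrp1KO, with a large spread in both groups (-0.24 ± 0.45 SE; edgeR, Benjamini-Hochberg adjusted p = 0.878). Control B and miDrp1KO E were highest and control C and miDrp1KO F lowest, so the groups overlapped across nearly their whole range. *Pdk3*, with 18 to 68 counts a library, ranged from 1.13 to 1.66 CPM in controls and from 0.96 to 2.04 CPM in miDrp1KO.

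Of the 3 phosphatase genes, 1 was below 0 and 2 above. *Pdp1*, the calcium-activated catalytic subunit that predominates in muscle, measured 116, 145 and 135 CPM in the controls and 165, 136 and 146 CPM in miDrp1KO (0.17 ± 0.18 SE; edgeR, Benjamini-Hochberg adjusted p = 0.757). *Pdpr*, the regulatory subunit, measured 114, 74.0 and 97.7 CPM in the controls and 75.6, 76.0 and 51.7 CPM in miDrp1KO. Only miDrp1KO F lay below all the controls, and A and E were just above control C (-0.49 ± 0.21 SE; edgeR, Benjamini-Hochberg adjusted p = 0.442). *Pdp2*, the other catalytic subunit, ranged from 7 to 14.2 CPM in controls and from 8.83 to 11.8 CPM in miDrp1KO.

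Both pyruvate carrier genes had fitted changes above 0. *Mpc2* measured 72.4, 60.0 and 65.8 CPM in the controls and 62.5, 98.1 and 122 CPM in miDrp1KO (0.51 ± 0.23 SE; edgeR, Benjamini-Hochberg adjusted p = 0.451). *Mpc1*, its partner in the heterodimer, measured 257, 64.1 and 214 CPM in the controls and 65.0, 400 and 422 CPM in miDrp1KO (0.73 ± 0.89 SE; edgeR, Benjamini-Hochberg adjusted p = 0.807). For both, miDrp1KO E and F were above every control while miDrp1KO A was near control C, and for *Mpc1* the spread was larger than the difference of the means.

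All 7 aspartate, malate and glutamate members had fitted changes below 0. None had an unadjusted edgeR p under 0.05, against 6.22% of all tested genes in the lower direction. *Glud1*, glutamate dehydrogenase, measured 94.7, 94.0 and 86.3 CPM in the controls and 78.7, 80.3 and 74.1 CPM in miDrp1KO, without overlap (-0.24 ± 0.15 SE; edgeR, Benjamini-Hochberg adjusted p = 0.593). *Me2*, the mitochondrial NAD-dependent malic enzyme, measured 5.54, 4.96 and 5.01 CPM in the controls and 4.86, 4.58 and 3.98 CPM in miDrp1KO, also without overlap but by a narrow margin (-0.21 ± 0.20 SE; edgeR, Benjamini-Hochberg adjusted p = 0.742). Both genes differed little among the controls. *Got1*, the cytosolic aspartate aminotransferase, measured 329, 93.1 and 177 CPM in the controls and 129, 182 and 207 CPM in miDrp1KO. *Got2*, the mitochondrial form, ranged from 115 to 261 CPM in controls and from 120 to 177 CPM in miDrp1KO, and both aminotransferases were highest in control B and lowest in control C. *Me1*, the cytosolic malic enzyme that supplies NADPH to fat synthesis, had the opposite order, with 58.4, 133 and 81.4 CPM in the controls and 107, 53.6 and 77.7 CPM in miDrp1KO. *Me3*, the mitochondrial NADP-dependent form, ranged from 47.5 to 52.7 CPM in controls and from 32.3 to 53.9 CPM in miDrp1KO.

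*Nnt*, the inner membrane transhydrogenase that makes NADPH from NADH, needs separate reading, because C57BL/6J mice are known to carry a deletion within this gene. It measured 112, 18.3 and 42.9 CPM in the controls and 22.1, 55.1 and 23.1 CPM in miDrp1KO (-0.78 ± 0.80 SE; edgeR, Benjamini-Hochberg adjusted p = 0.772). It had the lowest fitted value of the 36 and the widest error but 1, and its counts do not show which allele each animal carried.

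**Figure D3:**
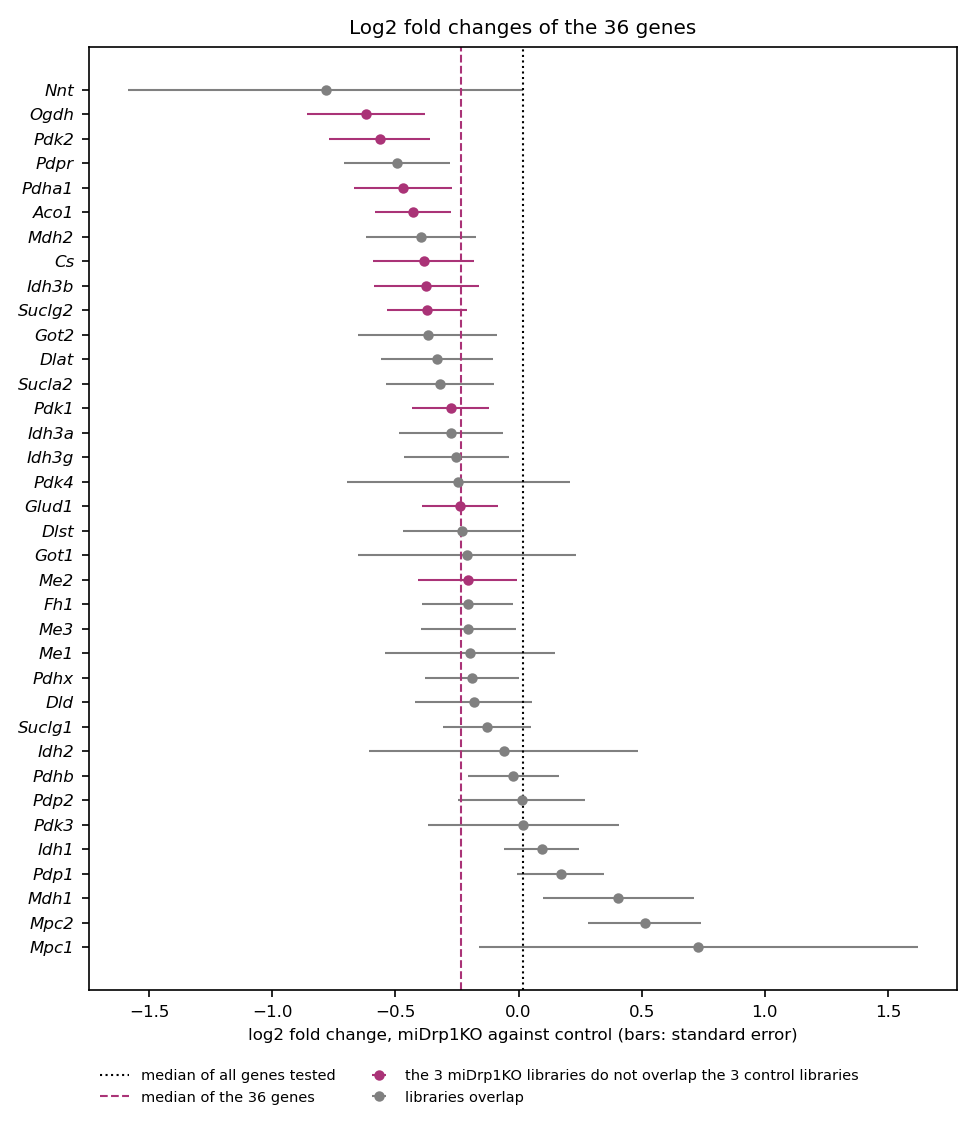
Log2 fold change (miDrp1KO against control) of each of the 36 genes with its standard error, ordered by size, with purple for the 10 genes whose groups did not overlap. The dashed line is the median of the 36 (-0.23) and the dotted line the median of all tested genes (0.017).

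Ratios of related genes in the same library do not depend on how the library was scaled, and 10 pairs were compared by an exact two-sided permutation test, whose smallest p with 3 against 3 is 0.1. In 2 pairs the groups did not overlap. The log2 ratio of *Pdha1* to *Pdhb* was 1.71, 1.49 and 1.71 in the controls and 1.38, 1.29 and 0.96 in miDrp1KO, a difference of -0.43 (exact permutation p = 0.1, Benjamini-Hochberg adjusted p = 0.5 over the 10 pairs). The log2 ratio of *Mdh2* to *Mdh1* was -0.56, -0.38 and -0.39 in the controls and -0.76, -1.50 and -1.39 in miDrp1KO, a difference of -0.77 (exact permutation p = 0.1, Benjamini-Hochberg adjusted p = 0.5). Transcripts of the alpha relative to the beta subunit, and of mitochondrial relative to cytosolic malate dehydrogenase, were thus lower in each miDrp1KO animal than in each control. For the malate dehydrogenases miDrp1KO A lay closest to the controls, and E and F were lowest.

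The other 8 pairs overlapped. The log2 ratio of *Suclg2* to *Sucla2*, the GDP-forming over the ADP-forming subunit, differed by -0.03 (exact permutation p = 0.8), and that of *Idh3a* to *Idh3g* by -0.03 (exact permutation p = 0.5). *Got2* to *Got1* differed by -0.25 (exact permutation p = 0.4) and *Idh2* to *Idh1* by 0.09 (exact permutation p = 0.9). Kinase to phosphatase, as *Pdk4* to *Pdp1*, differed by -0.45 (exact permutation p = 0.6), and *Pdk4* to *Pdk2* by 0.29 (exact permutation p = 0.6). *Pdk1* to *Pdk2* differed by 0.29 (exact permutation p = 0.3) and *Mpc1* to *Mpc2* by 0.08 (exact permutation p = 0.8).

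**Figure D4:**
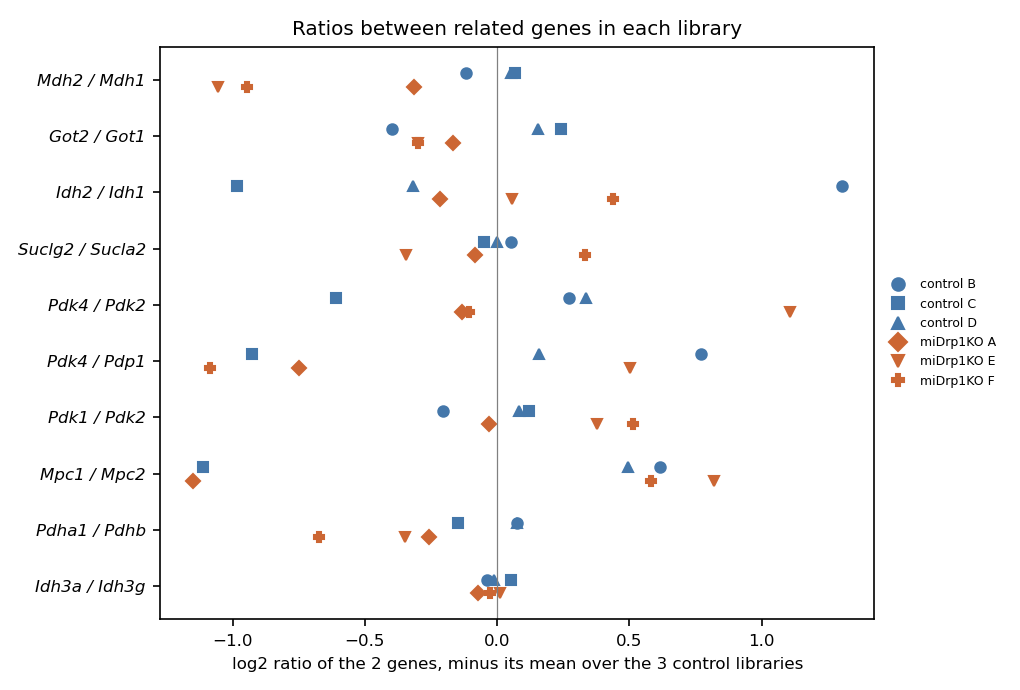
Log2 ratio of 10 gene pairs in each library, minus its mean over the 3 controls. *Mdh2* to *Mdh1* and *Pdha1* to *Pdhb* are the 2 pairs in which all miDrp1KO libraries lie below all controls.

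Among 70 neighbouring genes, 40 had fitted changes below 0 and 30 above, with a median of -0.11, and edgeR called 0. An unadjusted edgeR p under 0.05 was found for 8, all lower. Of all tested genes, 6.22% had such a p in the lower direction and 4.68% in the higher. Of the 4 succinate dehydrogenase subunits, 2 were below 0 and 2 above. *Sdha*, the flavoprotein that oxidises succinate, measured 732, 397 and 607 CPM in the controls and 320, 337 and 290 CPM in miDrp1KO, without overlap (-0.87 ± 0.24 SE; edgeR, Benjamini-Hochberg adjusted p = 0.362), and DESeq2 called it lower (adjusted p = 0.0450). Of 8 other citrate cycle and 2-oxoacid enzymes, 6 were below 0 and 2 above, and none had an unadjusted edgeR p under 0.05. The lipoic acid genes, which make the cofactor of *Dlat* and *Dlst*, divided evenly, with 3 below 0 and 3 above.

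Of 10 pyruvate and lactate enzymes, 6 were below 0. *Pkm*, the pyruvate kinase that delivers pyruvate, had means of 2571 CPM in controls and 1502 CPM in miDrp1KO, without overlap (-0.78 ± 0.24 SE; edgeR, Benjamini-Hochberg adjusted p = 0.380), and was also called lower by DESeq2 (adjusted p = 0.0289). *Gpt2*, the mitochondrial alanine aminotransferase, was at -0.56 and overlapped. Of 8 acetyl-CoA, ketone and glutamine enzymes 6 were below 0, and *Crat*, carnitine acetyltransferase, which buffers acetyl-CoA in muscle, had means of 453 and 301 CPM without overlap. The 6 exchange carriers had 3 genes on each side of 0 and none with an unadjusted p under 0.05.

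Of 13 fasting and PPAR target genes, which share fasting induction with *Pdk4*, 6 were below 0 and 7 above. *Ucp3*, an uncoupling protein of muscle mitochondria, had means of 180 and 116 CPM, and *Plin2*, which coats lipid droplets, 28.1 and 19.6 CPM, both without overlap. Of 15 regulators of oxidative genes, 8 were below 0 and 7 above. *Pparg* (means of 7.58 and 4.71 CPM) and *Rxra* (154 and 105 CPM), nuclear receptors that pair with each other, did not overlap. Among controls *Pparg* was highest in C and lowest in B, as were the fat markers *Adipoq* and *Plin1*, while the fat marker *Car3* was lowest in D. The part of fat in the *Pparg* difference was not tested.

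Markers of fibre type and fat were examined in the same libraries, and edgeR called none of them. All 10 fast fibre markers but 1 were below 0, 5 without overlap and 3 with an unadjusted edgeR p under 0.05. Of all tested genes, 10.3% were lower without overlap and 6.22% had such a p in the lower direction. The summed level of the fast fibre markers ran from 137600 to 161097 CPM in controls and from 71337 to 129025 CPM in miDrp1KO. All 10 slow fibre markers were above 0, with no unadjusted p under 0.05, at summed levels of 569, 89.9 and 129 CPM in the controls and 138, 851 and 751 CPM in miDrp1KO. These levels overlapped, with B, E and F high in slow fibre transcripts and C, D and A low. The summed pyruvate carrier genes were also low in C and A (124 and 128 CPM) and high in B, E and F (329, 498 and 545 CPM), but D, at 280 CPM, was near B. All 8 adipose markers were below 0, 3 with an unadjusted edgeR p under 0.05, against 6.22% of all tested genes. Their sum ran from 714 to 1835 CPM in controls, highest in C, and from 404 to 889 CPM in miDrp1KO. A single gene, *Car3*, made up 1144 of the 1835 CPM in C and 565 of the 889 CPM in A. Without it, an omission chosen after its values were seen, the other 7 summed to 428, 691 and 555 CPM in the controls and to 324, 284 and 408 CPM in miDrp1KO, without overlap. The part of fibre type and fat in the members' differences was not tested.

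**Figure D5:**
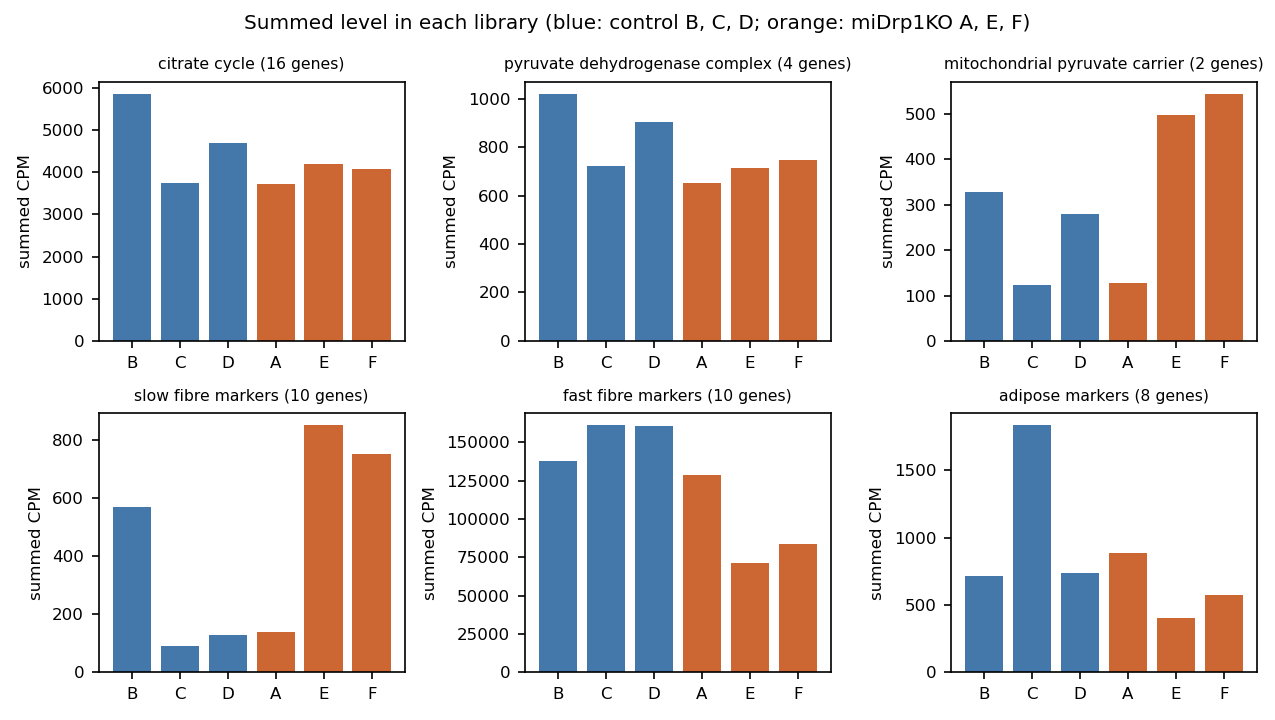
Summed CPM of 3 groups of members and of 3 marker lists in each library (blue for control B, C and D, orange for miDrp1KO A, E and F), with bars starting at 0. Slow fibre markers are high in B, E and F, adipose markers are highest in C, and fast fibre markers are lowest in E and F.

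Skeletal muscle markers, checked against the labelled tissue, summed to between 136556 and 153515 CPM in controls and between 66529 and 115004 CPM in miDrp1KO. The highest sum of a list for another tissue or cell type was 2639.7 CPM (fibroblast and matrix, miDrp1KO E). Of the 9 skeletal muscle markers, 7 were below 0 and 2 above, with a median of -0.55. *Myh4*, *Myh1*, *Tnnt3*, *Actn3* and *Pvalb* are also in the fast fibre list, so the skeletal muscle list is not independent of it. All miDrp1KO libraries lay below all controls for 3 of the 9 (*Acta1*, *Tnnt3* and *Myh4*), against 10.3% of all tested genes. An unadjusted edgeR p under 0.05 was found for 2 (*Myh4* and *Actn3*), both lower, against 6.22% of all tested genes. The part of this difference in that of the members was not tested. Among other cells, 7 of 7 fibroblast and matrix, 6 of 7 peripheral nerve, 4 of 7 macrophage and 4 of 5 blood markers were above 0, and 4 of 6 endothelial markers were below 0. Of these 5 lists, only macrophage markers included genes with an unadjusted edgeR p under 0.05. These were 2, both higher, against 4.68% of all tested genes in that direction. Summed levels of the macrophage markers were 163 to 297 CPM in controls and 240 to 270 CPM in miDrp1KO.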

How the data were processed

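The authors prepared stranded total RNA libraries depleted of ribosomal RNA, aligned the reads to GRCm38 and counted them per gene with Rsubread. The deposited values are raw counts per gene, 1 file per library, and how strand and reads matching several places were handled is not given in the sources used here, so genes with close copies or pseudogenes are uncertain. From these counts, edgeR (4.0.16, R 4.3.3) was run with trimmed mean of M values scaling, filterByExpr and the robust quasi-likelihood test on the 6 libraries with genotype as the only term, and p-values were adjusted by Benjamini-Hochberg over 16483 genes. The threshold was 0.05 and the common biological coefficient of variation was 0.252. The scripts were tested on simulated data. CPM per kilobase uses merged exons of GENCODE vM21. Gene ratios were taken with 0.5 added to each count. Replicates are animals. The genes described are all 36 members, with values in every library for those without overlap or with an unadjusted p under 0.05, for the most abundant member of each role, and for *Pdk4* and *Nnt*. Values in every library are also given for partner genes of the same enzyme, complex or compartment pair (*Dlst*, *Dld*, *Suclg1*, *Sucla2*, *Idh2*, *Mdh1*, *Mdh2*, *Pdhb*) and for *Me1*, which were added after their values were seen. Members, neighbouring genes, markers and pairs were chosen with earlier results of these data known. Alternatives were DESeq2 (1.42.0), upper quartile and relative log expression scaling, no filter or at least 10 counts in every library, a fit without *Lars2* and the ribosomal RNA genes, a fit with each library's share of ribosomal RNA as a term, and omission of each library. Per the study's methods, the libraries were combined into more than 1 pool for sequencing. Which libraries shared a pool is not given in the sources used here. Promoter sequences are from RefSeq (GRCm38.p6).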

Additional observations from a re-analysis of the deposited data

How the results depend on the processing

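Each member was refitted under 13 alternatives, and none was called in any of them. The lowest adjusted p was 0.0854, for *Mpc2* in an edgeR fit with 1 library left out (Benjamini-Hochberg adjusted). The fitted direction was kept in every alternative by 26 members, and 10 changed sign in some. Causes were not tested.

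With upper quartile scaling, which moved the median of all genes to 0.11, 3 members had an unadjusted p under 0.05 in the lower direction, 4 lay below all controls and 2 above, and *Idh2* and *Pdhb* were at 0.024 and 0.072. With at least 10 counts in every library these were 3 with such a p and 5 below, with *Pdhb* at 0.023. Leaving out ribosomal RNA genes and *Lars2* put *Pdhb* at 0.021. With each library's share of ribosomal RNA as a term, 0 members had an unadjusted p under 0.05 in the higher direction and *Pdk3* was at -0.12. Shares of all genes with an unadjusted p under 0.05 are not given for the fits of this paragraph. Their counts by p are therefore not read as a result about the members.

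Leaving out 1 library at a time gave 0 (without control B) to 10 (without control C) members with an unadjusted p under 0.05 in the lower direction and 0 (without C, D, E or F) to 3 (without B) in the higher. Shares of all genes with such a p are not given for these omissions, so these counts are not read as a result about the members. Members below all controls numbered 9 (without A, B or D, against 17.5%, 13.3% and 10.8% of all genes) to 21 (without C, against 15.6%). Members above all controls numbered 0 (without C, D or F, against 14.4%, 12.3% and 13.2%) to 3 (without A, against 20.2%), and the median ran from -0.42 (without C) to -0.082 (without B). Over these omissions, log2 fold changes ran from -0.43 to 0.77 for *Idh2*, -0.46 to 0.040 for *Dlst*, -0.35 to 0.0078 for *Dld*, -0.13 to 0.096 for *Pdhb*, -0.32 to 0.23 for *Pdk3*, -0.77 to 0.091 for *Pdk4*, -0.19 to 0.38 for *Pdp2*, -0.57 to 0.37 for *Got1*, -0.45 to 0.16 for *Me1* and -1.36 to 0.14 for *Nnt*. Another 21 members kept their sign but moved by over 1.5 times in some omission. Among them, between omission of C and of B, *Cs* ran from -0.54 to -0.21, *Idh3b* from -0.52 to -0.19, *Ogdh* from -0.83 to -0.37, *Mdh2* from -0.59 to -0.17, *Mdh1* from 0.19 to 0.71, *Dlat* from -0.55 to -0.089 and *Got2* from -0.66 to -0.077. *Pdk2* was at -0.37 without B, *Mpc1* ran from 0.30 (without C) to 1.23 (without A), and without miDrp1KO F *Mpc2* was at 0.30, *Pdpr* at -0.31, *Sucla2* at -0.16 and *Me2* at -0.11. The 5 within 1.5 times were *Aco1*, *Suclg2*, *Pdha1*, *Pdk1* and *Glud1*. Ratio differences ran from -0.92 (without E) to -0.060 (without B) for *Pdk4* to *Pdp1*, -0.45 (without B) to -0.13 (without C) for *Got2* to *Got1*, 0.17 (without F) to 0.45 (without A) for *Pdk1* to *Pdk2*, -0.050 (without B) to -0.0041 (without C) for *Idh3a* to *Idh3g*, -0.40 to 0.74 for *Idh2* to *Idh1*, -0.22 to 0.12 for *Suclg2* to *Sucla2*, -0.12 to 0.50 for *Pdk4* to *Pdk2* and -0.47 to 0.70 for *Mpc1* to *Mpc2*. No paired analysis was possible because no letter is shared by both groups. Depth limits *Pdk3*, with 18 counts in control C.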
